A study of Mus musculus with 13 samples.

Results

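The NLRX1-overexpressing tumours of this series were compared with tumours of the matching transduced control line. The 4 arrays of the 4T1OE line and the 4 arrays of the 4T1OE-CTL line were taken by their titles, 8 of the 13 samples and of the 12 tumour arrays. Host genotype was a covariate of every fit unless stated otherwise. The 4 groups held 2 arrays each. They were 4T1OE tumours in Nlrx1-/- BALB/c hosts, 4T1OE tumours in WT BALB/c hosts, 4T1OE-CTL tumours in Nlrx1-/- hosts and 4T1OE-CTL tumours in WT hosts. 4T1 cells come from a mammary carcinoma of a BALB/c mouse. 4T1OE cells were transduced to overexpress NLRX1 and 4T1OE-CTL cells were the transduced control, so both lines had been through transduction. Cells were grown in 1 mammary fat pad, and RNA of flash-frozen tumours was pooled for each array, with no number of tumours per pool in the labels. The vector, the species of the construct, the use of single clones and the age of the hosts were likewise absent from them. Each line stands for itself alone, so overexpression cannot be told apart from any other difference between the lines. The p-values measure only the spread between these pools.

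NLRX1 belongs to the NOD-like receptor family and, unlike most of its relatives, sits at mitochondria. It is known as a brake on innate signalling. It binds MAVS, the mitochondrial adaptor of the RNA sensors RIG-I and MDA5, and TRAF6, which feeds NF-kB, and with TUFM it recruits the Atg12 conjugation machinery of autophagy. In mammary tumours the same innate pathways act in carcinoma cells and in the macrophages, vessels and lymphocytes around them. A whole-tumour array reads all of these together, so fewer cells of a type and less RNA per cell cannot be told apart.

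Values are log2 expression values as deposited, and differences are 4T1OE minus 4T1OE-CTL on that scale. Array values are listed for Nlrx1-/- hosts (replicates 1 and 2) and then for WT hosts (replicates 1 and 2). The spread of values within an array went with the line. Its standard deviation was 3.12, 3.09, 3.09 and 3.10 on 4T1OE arrays, against 2.91, 2.78, 2.88 and 3.07 on 4T1OE-CTL arrays (p = 0.0286 by exact permutation, two-sided, where 70 splits allow no smaller p). WT 4T1OE-CTL replicate 2 was thus the 1 control array with a standard deviation of at least 3, and the other 3 are called the narrow arrays here. On the 8 arrays 55.2% to 59.2% of features lay above the median of the array's own negative controls. Arrays correlated with each other at r of 0.948 to 0.991 across features, and no pair was identical. Most list medians and the differences of several leading genes are given with and without the narrow arrays. The fit without them keeps 1 control array, WT replicate 2, whose spread is assumed to equal that of the others. Host is a term of that fit and no Nlrx1-/- control array is left. Its differences are therefore those of the 2 WT 4T1OE arrays from this 1 control array. A change in a value without the narrow arrays cannot be told apart from a change due to leaving out the Nlrx1-/- hosts.

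Nlrx1 itself was higher on every 4T1OE array. Its values were 9.93, 10.67, 10 and 9.31 in 4T1OE tumours, against 6.39, 5.99, 7.06 and 6.93 in 4T1OE-CTL tumours. The lowest 4T1OE value stood above the highest control value, and the groups did not overlap. The difference was 3.39 (SE 0.33, limma adjusted p = 0.00293), and the exact two-sided permutation test over the 8 arrays likewise gave the smallest possible p, 0.0286. Adding array standard deviation to the model gave 2.85 (limma adjusted p = 0.185), and without the narrow arrays 2.72 (limma adjusted p = 0.109), so the call ended under both. Nlrx1 on the parental 4T1 tumours of the series, for context, was 6.75, 6.60, 6.13 and 7.13. The array service had advised against 1 of the parental arrays. The list of NLRX1 partners and antiviral sensing genes had 19 measured members, Nlrx1 itself among them. Of these 2 rose and 0 fell, against 4.71% of all features higher and 1.73% lower. The rise of Nlrx1, the transduced gene, was set by the design. The other that rose was Cgas, the DNA sensor, and 1 such gene does not stand out from that share. Cgas was 7.36, 7.31, 7.64 and 7.94 in 4T1OE tumours, against 6.12, 5.69, 6.29 and 7.40 in 4T1OE-CTL tumours, and 1 control value (WT replicate 2) lay inside the 4T1OE range. The other 17 genes of this list did not pass, and among them were Mavs, with 0.77 (SE 0.31, limma adjusted p = 0.152), and Irf7, with -1.10 (SE 0.33, limma adjusted p = 0.0724). The list's median was 0.52 over all 8 arrays and 0.08 without the narrow arrays.

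**Figure D1:**
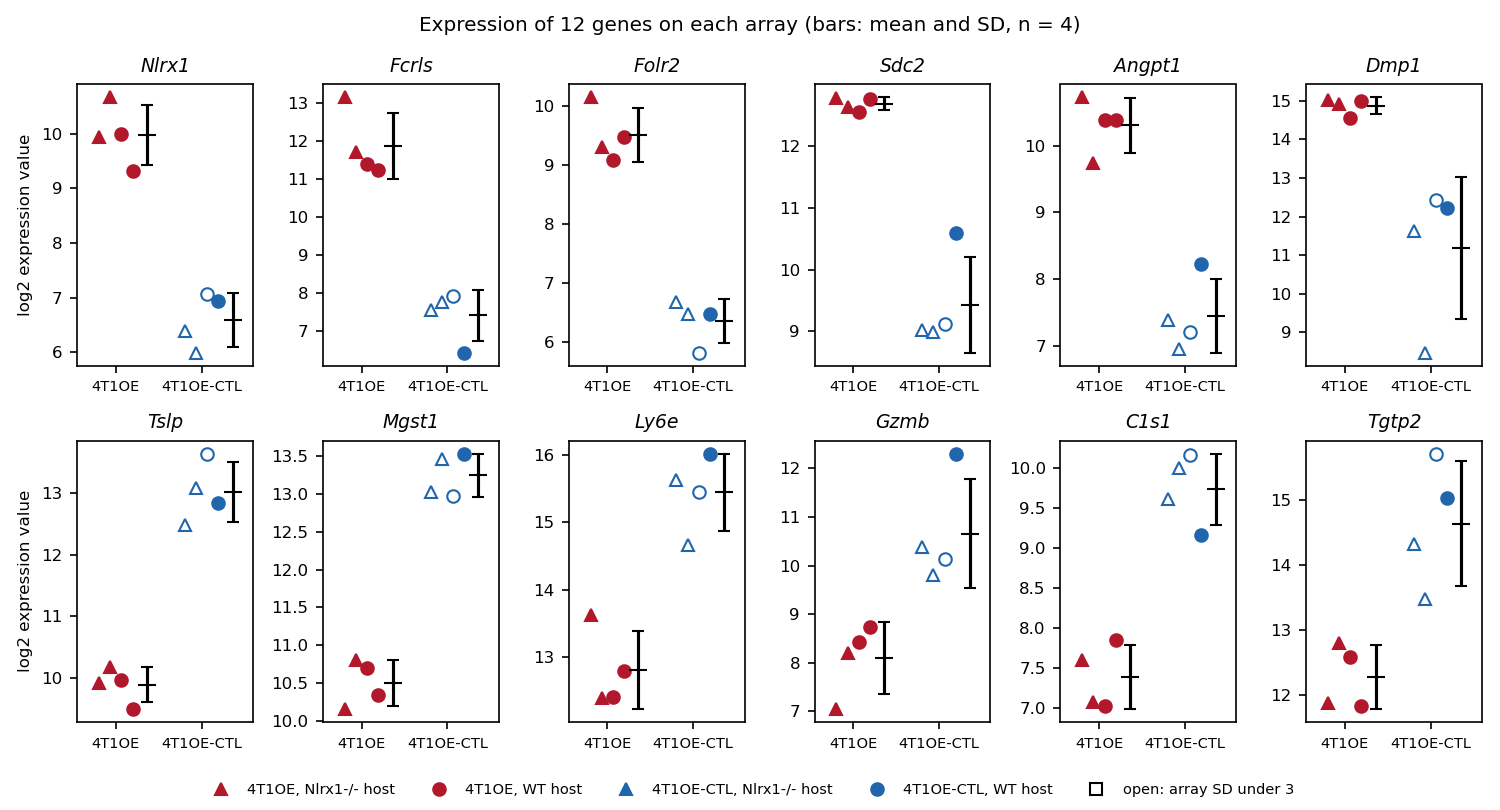
Deposited log2 values of 12 genes (vertical axes, 1 range per gene) on 4T1OE arrays (red, left in each panel) and 4T1OE-CTL arrays (blue, right), with triangles for Nlrx1-/- hosts and circles for WT hosts. Open symbols mark the narrow arrays and black bars the mean and SD of 4 arrays; the 6 genes of the upper row lie higher and the 6 of the lower row lower on all 4 4T1OE arrays.

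Across all features, 1432 of 22206 passed limma at an adjusted p of 0.05, which is 6.45%. Of these, 1047 were higher (4.71%) and 385 lower (1.73%) in 4T1OE tumours. Among 9978 features with a chromosome and a level above the median feature, 928 were higher and 165 lower. Counts of list members are read against these shares, and a list near them does not stand out. The median difference of all features was -0.05. Most calls were moderate in size: 722 of the higher and 207 of the lower ones differed by 1 to 2, and 9 and 6 by 3 or more. All 1432 had the same sign in both hosts, which was fixed in advance for the 1338 of them whose lines did not overlap. The 4T1OE arrays lay wholly above the control arrays for 2085 features (9.39%) and wholly below them for 1583 (7.13%). Of the calls, 36 had both lines under the negative control median, so they carry no size. Quantile normalization left 787 calls, 479 higher and 308 lower (60.9% higher in place of 73.1%), and centring each array on its median gave 1947, 1660 higher and 287 lower (85.3%). Centring moved the median of all features to 0.07.

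The count rested on the arrays used. It was 0 with array spread in the model. All 1432 differences kept their sign in that fit and in the fit without the narrow arrays. In the latter, the sign was fixed in advance for the 1338 of them whose lines did not overlap. Fcna, the gene of the lectin ficolin A made by macrophages, was singled out from the fit without the narrow arrays and is also named below. The feature TC1500001728.mm.2, which has no gene symbol in the annotation used, was singled out there too, after its values were seen. It was 11.70, 11.11, 11.61 and 11.05 in 4T1OE tumours, against 14.26, 15.02, 17.45 and 16.82 in 4T1OE-CTL tumours. Leaving out 1 array gave 185 calls without Nlrx1-/- 4T1OE replicate 1, 265 without replicate 2 of that group, 618 and 387 without WT 4T1OE replicates 1 and 2, 829 without Nlrx1-/- 4T1OE-CTL replicate 2, 291 without WT 4T1OE-CTL replicate 1, 3245 without WT 4T1OE-CTL replicate 2 and 1095 when Nlrx1-/- 4T1OE-CTL replicate 1 was left out. The fit with 3245 calls left narrow arrays alone on the control side.

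Macrophage genes made up much of the upper end. Of 24 measured markers of tissue-resident macrophages 13 rose and 0 fell, and all 24 differences were positive. For this list the median was 1.495 against -0.05 for all features. Fcrls, an Fc receptor-like scavenger receptor gene of mouse resident macrophages and microglia, was 13.16, 11.73, 11.39 and 11.25 in 4T1OE tumours, against 7.54, 7.76, 7.92 and 6.42 in 4T1OE-CTL tumours. Folr2, the folate receptor beta of perivascular macrophages, was 10.14, 9.31, 9.09 and 9.47 in 4T1OE tumours, against 6.68, 6.47, 5.82 and 6.48 in 4T1OE-CTL tumours. Neither gene's groups overlapped, and the gap between the lines exceeded the spread within either. The differences were 4.47 (SE 0.38, limma adjusted p = 0.0018) for Fcrls and 3.14 (SE 0.24, limma adjusted p = 0.0018) for Folr2.

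The chemokine receptor Cx3cr1, which reads fractalkine on macrophages and microglia, was 11.05, 10.03, 9.85 and 9.68 in 4T1OE tumours, against 8.16, 5.38, 6.01 and 7.74 in 4T1OE-CTL tumours. The control arrays spread over nearly 3 units here, and the highest of them still lay below all 4T1OE arrays. Cbr2, a carbonyl reductase gene, was 11.17, 9.52, 9.45 and 9.95 in 4T1OE tumours, against 7.64, 7.04, 7.08 and 6.77 in 4T1OE-CTL tumours. Gpr34, the gene of a lysophosphatidylserine receptor of myeloid cells, was 10.46, 10.70, 10.49 and 10.53 in 4T1OE tumours, against 8.42, 6.32, 7.57 and 8.51 in 4T1OE-CTL tumours. These genes differed by 3.33, 2.89 and 2.84. Growth and scavenging receptors moved with them. Csf1r, the receptor of the macrophage growth factor CSF1, was higher by 2.32 (SE 0.33, limma adjusted p = 0.00803), the mannose receptor gene Mrc1 by 2.19 (SE 0.32, limma adjusted p = 0.00807) and the haemoglobin scavenger receptor gene Cd163 by 2.00 (SE 0.32, limma adjusted p = 0.0125). Further members that rose were Selenop (2.71), a selenium carrier, F13a1 (2.28), the A subunit of coagulation factor XIII, the complement gene C1qb (1.98), the efferocytosis receptor gene Mertk (1.10) and the scavenger receptor gene Stab1 (1.07). The 11 members that did not pass included Adgre1, the gene of F4/80, with 0.91 (SE 0.34, limma adjusted p = 0.131), Timd4 with 0.26 and Lyve1 with 0.16.

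On the arrays, the list's median deviation from each gene's median over the 8 arrays was 0.93, 0.43, 0.56 and 0.33 in 4T1OE tumours and -0.80, -1.15, -1.90 and -0.45 in 4T1OE-CTL tumours. All 4T1OE arrays lay above all control arrays, and the control array nearest to them was WT replicate 2, the one that is not narrow. Without the narrow arrays the list's median was 0.67 and 0 members passed (background 0.00450% higher and 0.00450% lower), with array spread in the model 0.74 and 0, and after quantile normalization 1.36 and 12 (background 2.16% higher). Fcna, the ficolin gene, was 7.77, 7.75, 7.94 and 7.83 in 4T1OE tumours, against 6.31, 5.92, 4.70 and 3.98 in 4T1OE-CTL tumours, a difference of 2.59 (SE 0.36, limma adjusted p = 0.00737). Both WT control values lay under the negative control medians of their arrays, 5.47 and 5.27. Without the narrow arrays the difference was 3.90, but it was taken from the value of 3.98 alone and so carries no exact size.

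Ligands that act on monocytes and macrophages were measured as well. Csf1, the growth factor read by Csf1r, was 15.82, 15.17, 15.21 and 15.63 in 4T1OE tumours, against 13.56, 14.16, 14.29 and 14.59 in 4T1OE-CTL tumours, higher by 1.30 (SE 0.25, limma adjusted p = 0.0201). Gas6, the ligand of Axl and Mertk, was 9.07, 8.47, 8.82 and 9.20 in 4T1OE tumours, against 7.36, 5.75, 5.65 and 5.87 in 4T1OE-CTL tumours. Its groups did not overlap, with Nlrx1-/- 4T1OE-CTL replicate 1 the highest control, and the difference was 2.73 (SE 0.36, limma adjusted p = 0.00711). Ccl12, a mouse monocyte chemokine gene, was 12.73, 11.96, 12.63 and 12.19 in 4T1OE tumours, against 9.61, 9.56, 8.12 and 10.57 in 4T1OE-CTL tumours, higher by 2.91 (SE 0.44, limma adjusted p = 0.00959). Among 20 chemokine genes 2 rose, Ccl12 and the fractalkine gene Cx3cl1 (1.51), and 0 fell. The list's median was -0.02, and its count was near the 928 of 9978 among features above the median level, so the list does not stand out. The monocyte list was split, with 2 of 10 members higher and 2 lower. Ccr2, the CCL2 receptor, was higher by 1.56 (SE 0.40, limma adjusted p = 0.0485) with 1 overlapping array, and Ace by 1.61 (SE 0.37, limma adjusted p = 0.035), whereas Ly6c2, the marker of inflammatory monocytes, was lower by 3.11 (limma adjusted p = 0.0291) and Plac8 by 2.18 (limma adjusted p = 0.00681). Of 15 neutrophil markers 0 passed, with 0 at an unadjusted limma p under 0.05, against 26.1% of all features. Ngp was the one with the smallest p (0.47, SE 0.33, limma adjusted p = 0.389).

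**Figure D2:**
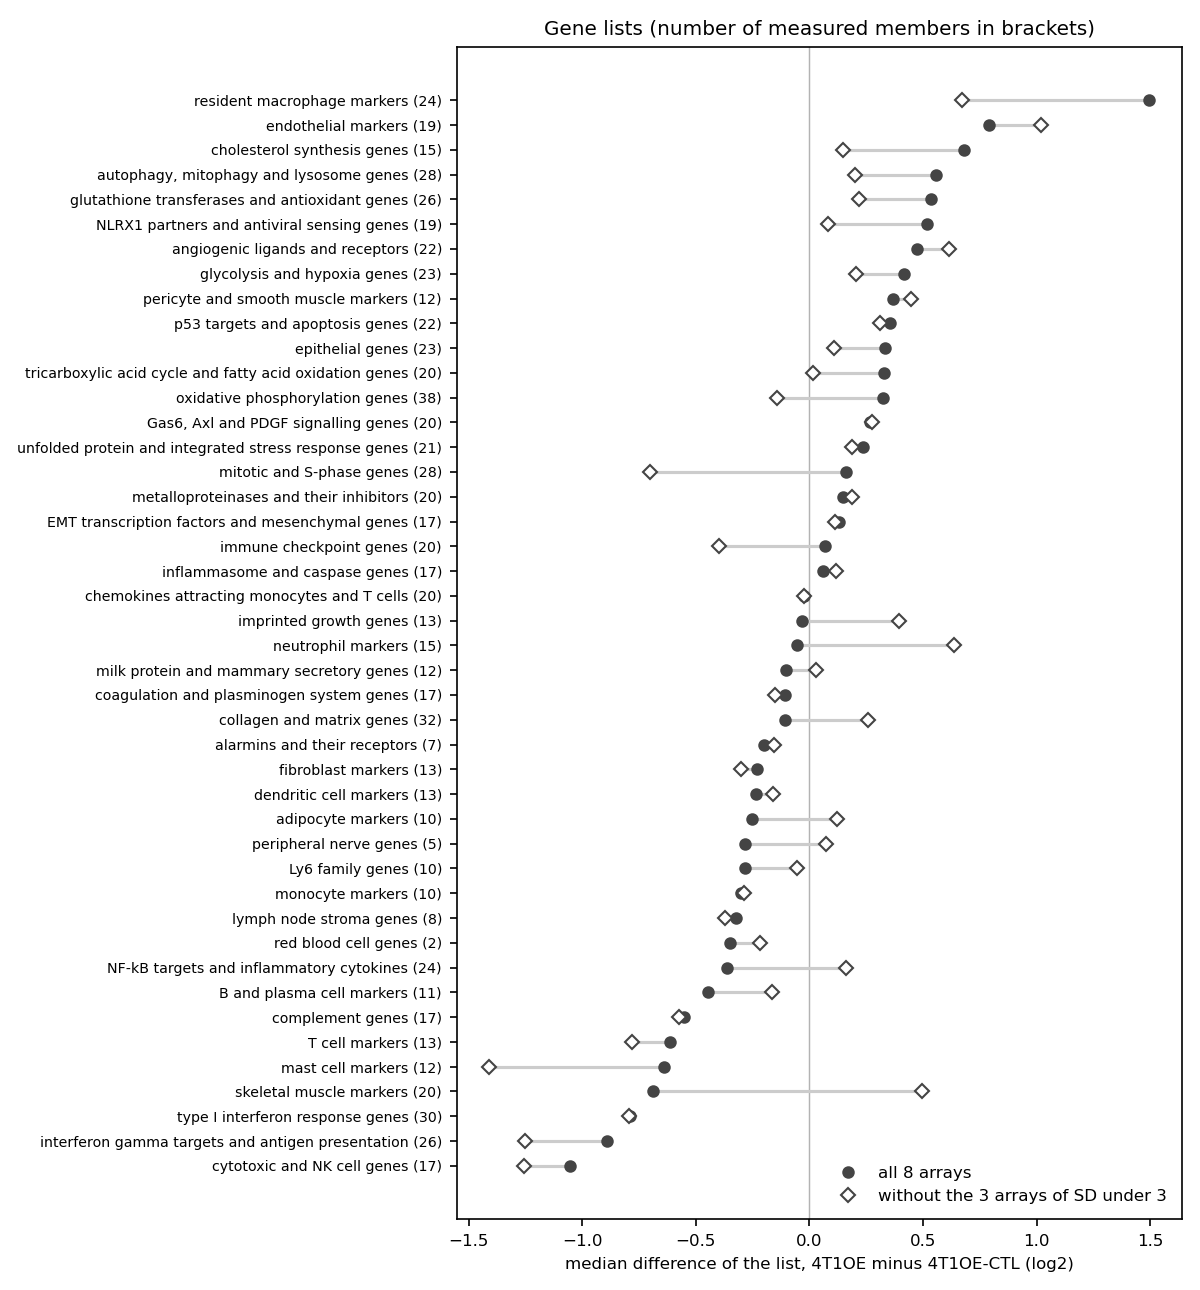
Median difference of each of the 44 gene lists (horizontal axis, 4T1OE minus 4T1OE-CTL, log2), with filled circles for all 8 arrays and open diamonds for the fit without the narrow arrays. Resident macrophage and endothelial markers lie furthest right with all 8 arrays and stay above 0.6 without the narrow arrays, cytotoxic and interferon gamma genes lie below -0.8 in both, and skeletal muscle, mitotic, neutrophil and oxidative phosphorylation genes change side.

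Some vessel genes rose as well, against a background of 4.71% of all features higher. Of 19 endothelial markers 4 rose and 0 fell, and 17 differences were positive, with a median of 0.79 over all 8 arrays and 1.02 without the narrow arrays. Cdh5, the cadherin of endothelial junctions, was 11.55, 10.31, 11.23 and 11.95 in 4T1OE tumours, against 10.09, 8.86, 8.97 and 9.01 in 4T1OE-CTL tumours. The VEGF receptor gene Flt1 was 11.24, 10.94, 11.27 and 11.82 in 4T1OE tumours, against 8.81, 9.99, 9.64 and 9.81 in 4T1OE-CTL tumours. In both genes the groups did not overlap, and the differences were 2.03 (SE 0.38, limma adjusted p = 0.0195) and 1.76 (SE 0.27, limma adjusted p = 0.00948). Plvap, of endothelial diaphragms, was higher by 1.48 (SE 0.31, limma adjusted p = 0.0261). Ptprb, the endothelial receptor phosphatase that acts on Tie2, lay under the negative control median on every control array and was at least 0.73 higher (limma adjusted p = 0.00803). The endothelial members Pecam1 and Kdr did not pass, with 0.79 (SE 0.41, limma adjusted p = 0.248) and 1.15 (SE 0.34, limma adjusted p = 0.0741).

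Among 22 angiogenic ligands and receptors 6 rose and 0 fell. Angpt1, the activating Tie2 ligand made by mural and stromal cells, was 10.72, 9.73, 10.38 and 10.38 in 4T1OE tumours, against 7.39, 6.96, 7.21 and 8.23 in 4T1OE-CTL tumours. All 4T1OE values lay above the control values, and WT replicate 2 was the highest control, a difference of 2.86 (SE 0.29, limma adjusted p = 0.00293). Angpt2, the endothelial Tie2 ligand, was higher by 1.62 (SE 0.25, limma adjusted p = 0.00945), the Notch ligand gene Dll4 of tip cells by 1.80 (SE 0.28, limma adjusted p = 0.0109), the peptide gene Apln of sprouting vessels by 1.76 (SE 0.41, limma adjusted p = 0.0362) and the VEGF and semaphorin co-receptor gene Nrp2 by 1.27 (SE 0.23, limma adjusted p = 0.0172). The list's median was 0.47 with all arrays and 0.61 without the narrow ones, and 0.30 without WT 4T1OE-CTL replicate 1 and 0.29 without WT 4T1OE-CTL replicate 2. Mural cells showed the same direction in 2 of 12 markers, the pericyte gene Rgs5 (1.96, SE 0.39, limma adjusted p = 0.023) and the channel subunit gene Abcc9 (1.07, SE 0.27, limma adjusted p = 0.0472), with 0 lower. Of 13 fibroblast markers 0 rose and 1 fell, with Col1a2 lower by 1.44 (limma adjusted p = 0.04) and Dcn at -1.74 (SE 0.53, limma adjusted p = 0.0786).

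A share of the interferon-induced genes fell in 4T1OE tumours, against a background of 1.73% of all features lower. Type I interferon induces antiviral genes through ISRE elements in their promoters, and interferon gamma induces genes of antigen presentation and of defence within cells. Of 30 type I response genes 7 fell and 0 rose, 28 differences were negative, and the median was -0.79 with all 8 arrays and -0.79 without the narrow arrays. Herc6, a ubiquitin-like ligase gene induced by interferon, was 10.22, 10.78, 10.58 and 10.58 in 4T1OE tumours, against 12.57, 11.85, 12.47 and 12.07 in 4T1OE-CTL tumours. Bst2, the tetherin gene, was 8.56, 9.29, 8.80 and 9.03 in 4T1OE tumours, against 9.76, 10.18, 10.73 and 10.85 in 4T1OE-CTL tumours. Xaf1 was 9.44, 9.52, 9.18 and 9.17 in 4T1OE tumours, against 10.46, 10.27, 11.003 and 10.83 in 4T1OE-CTL tumours. None of the 3 overlapped between the lines, with differences of -1.70 (SE 0.22, limma adjusted p = 0.00711), -1.47 (SE 0.25, limma adjusted p = 0.0139) and -1.31 (SE 0.21, limma adjusted p = 0.0128). Cmpk2 (-1.22), Rtp4 (-1.20), the Z-nucleic-acid sensor gene Zbp1 (-1.18) and Ifit1 (-0.99) were the other members that fell, and Ifit1 was 6.48, 6.40, 6.81 and 6.65 in 4T1OE tumours, against 7.71, 7.44, 7.73 and 7.43 in 4T1OE-CTL tumours.

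Of 26 interferon gamma targets and antigen presentation genes 6 fell and 1 rose, with a median of -0.89 and of -1.25 without the narrow arrays. The immunity-related GTPase genes, which attack the vacuoles of intracellular pathogens, held the largest of these differences. Tgtp2 was 11.88, 12.80, 12.58 and 11.83 in 4T1OE tumours, against 14.32, 13.47, 15.72 and 15.04 in 4T1OE-CTL tumours, and the feature may also read its near-identical neighbour Tgtp1. Igtp was 9.95, 10.54, 10.29 and 9.73 in 4T1OE tumours, against 11.23, 11.71, 13.65 and 12.26 in 4T1OE-CTL tumours. Irgm2 was 9.23, 10.02, 9.19 and 9.54 in 4T1OE tumours, against 10.47, 10.05, 12.45 and 11.45 in 4T1OE-CTL tumours, and Gbp4, a guanylate-binding protein gene, was 13.45, 14.44, 14.14 and 13.66 in 4T1OE tumours, against 15.28, 14.93, 17.29 and 16.11 in 4T1OE-CTL tumours. In all 4 genes the groups did not overlap, the 2 WT control values were the highest, and the median of the list was -0.33 in Nlrx1-/- hosts and -1.52 in WT hosts. The interactions of these 4 genes had limma adjusted p-values of 0.969. The differences were -2.37 (SE 0.39, limma adjusted p = 0.0133), -2.09 (SE 0.41, limma adjusted p = 0.022), -1.61 (SE 0.41, limma adjusted p = 0.0469) and -1.98 (SE 0.40, limma adjusted p = 0.024). Gm12250, the gene of the immunity-related GTPase Irgb10, lay outside the lists and was lower by 2.39 (limma adjusted p = 0.013). Tapbp, the tapasin gene of the MHC class I loading complex, went the other way, higher by 1.16 (SE 0.29, limma adjusted p = 0.0457). The class I gene H2-K1 itself differed by -0.49 (SE 0.18, limma adjusted p = 0.123) and did not pass.

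Promoter letters were searched in RefSeq windows of build GRCm38.p6, 250 bases before to 50 after each gene's start, which matched 15691 of 19505 tested genes. The ISRE core (GAAA, any 2 bases, GAAA), on either strand, stood in 24 of 219 promoters of the 193 matched genes that were lower in 4T1OE tumours (10.96%), in 23 of 1040 promoters of the 785 that were higher (2.21%) and in 3.35% of all 19143 promoters. The E-box CANNTG, taken as a common motif, stood in 70.3% of the promoters of lower genes, 62.1% of those of higher genes and 68.9% of all. Each motif was counted by itself, and motifs may overlap. Of the 13 interferon list genes that fell, 9 had a promoter in the table and 5 of these an ISRE core. Of the 50 promoters of all members of the interferon lists, whether they fell or not, 20 carried it (40.0%). Their 60-base stretches are shown because they are the members of the interferon lists that fell with a match, 5′ to 3′ on the strand of the gene, with the matching letters in capitals:
Bst2, chr8:71537568-71537627, strand minus: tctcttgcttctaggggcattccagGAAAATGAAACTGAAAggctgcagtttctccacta
Ifit1, chr19:34640760-34640819, strand plus: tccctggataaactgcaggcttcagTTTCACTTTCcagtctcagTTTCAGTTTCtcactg
Igtp, chr11:58199496-58199555, strand plus: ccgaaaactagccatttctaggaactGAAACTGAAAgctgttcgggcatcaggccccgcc
Irgm2, chr11:58214888-58214947, strand plus: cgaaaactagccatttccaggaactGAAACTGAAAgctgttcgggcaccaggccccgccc
Tgtp2, chr11:49064248-49064307, strand minus: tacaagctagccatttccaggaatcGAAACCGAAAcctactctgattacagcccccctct
The stretches of Igtp, Irgm2 and Tgtp2 carry 1 core each, with 34, 64 and 70 bases between the start of the core and the start of the gene. Ifit1 carries 2 cores, read on the opposite strand, and Bst2 2 overlapping ones. A match is a description of the letters and says nothing on whether a factor bound there.

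Some genes of cytotoxic lymphocytes fell too, against 1.73% of all features lower. Of 17 cytotoxic and NK cell genes 3 fell and 0 rose, 15 differences were negative, and the median was -1.06 with all 8 arrays and -1.26 without the narrow arrays. Gzmb, the granzyme B gene of cytotoxic granules, was 7.04, 8.21, 8.42 and 8.74 in 4T1OE tumours, against 10.38, 9.81, 10.14 and 12.31 in 4T1OE-CTL tumours. The highest control was WT replicate 2, the lowest 4T1OE value was Nlrx1-/- replicate 1, and the groups did not overlap. Gzmb differed by -2.55 (SE 0.43, limma adjusted p = 0.0139) and Gzma by -1.51 (SE 0.33, limma adjusted p = 0.0288). The death ligand gene Fasl passed too, but both lines were under their negative controls and its size is not given. The pore-forming protein gene Prf1 and Ifng did not pass, with -1.001 (SE 0.35, limma adjusted p = 0.109) and -1.14 (SE 0.35, limma adjusted p = 0.0765). All 13 T cell markers had negative differences and 0 passed, with Thy1 at -0.87 (SE 0.35, limma adjusted p = 0.151). The T cell list was high on Nlrx1-/- replicate 1 of both lines, with deviations of 1.97, -0.50, -0.47 and -0.64 in 4T1OE tumours and 2.33, -0.13, 0.34 and 0.33 in 4T1OE-CTL tumours, and its median moved between -0.29 and -1.14 when Nlrx1-/- 4T1OE-CTL replicates 1 and 2 were left out singly. On the same 2 arrays the B and plasma cell list deviated by 3.00 and 3.80, and the 11 measured members had a median of -0.45 with 0 passing. That median turned to 0.47 without Nlrx1-/- 4T1OE-CTL replicate 1 and to 0.24 without Nlrx1-/- 4T1OE replicate 2, and it was -0.93 without Nlrx1-/- 4T1OE replicate 1, -1.19 without Nlrx1-/- 4T1OE-CTL replicate 2 and -0.17 without the narrow arrays. The T cell median was -0.78 without the narrow arrays. Leaving out Nlrx1-/- replicate 1 of both lines, the arrays of a high B cell list, gave 290 calls, 201 higher and 89 lower. In that fit the median of the cytotoxic list was -0.79 and that of the macrophage list 1.69.

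Mast cell protease genes fell in 2 cases of 12 mast cell markers, against 1.73% of all features lower. Mcpt1 was 5.32, 5.66, 6.57 and 5.69 in 4T1OE tumours, against 6.30, 10.29, 8.45 and 9.20 in 4T1OE-CTL tumours, with a control range of nearly 4 units and the lowest control inside the 4T1OE range, and it differed by -2.75 (SE 0.68, limma adjusted p = 0.0434). Mcpt2 was lower by 1.58 (limma adjusted p = 0.0427). Kit, the receptor of mast cells, differed by 1.06 (SE 0.28, limma adjusted p = 0.0521) and did not pass. For this list the median was -0.64, or -1.41 without the narrow arrays, and leaving out the Nlrx1-/- 4T1OE-CTL arrays singly gave -1.13 (replicate 1) and -0.30 (replicate 2).

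Tslp, an alarmin cytokine of epithelial cells that acts on dendritic cells, was lower by 3.12 in 4T1OE tumours (SE 0.27, limma adjusted p = 0.0018). Its values were 9.92, 10.18, 9.97 and 9.498 in 4T1OE tumours, against 12.48, 13.08, 13.64 and 12.84 in 4T1OE-CTL tumours. The lines lay over 2 units apart with no overlap, and without the narrow arrays the difference was -3.11. The parental tumours, for context, had 10.53, 11.34, 11.31 and 11.45. The receptor genes did not pass: Crlf2, its specific chain, differed by -0.11 (SE 0.19, limma adjusted p = 0.753) and Il7r, the shared chain, by -1.63 (SE 0.43, limma adjusted p = 0.0536). Of the 7 measured alarmins and receptors Tslp alone passed.

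Of 17 complement genes 6 fell and 1 rose, against 1.73% of all features lower and 4.71% higher. The gene that rose was C1qb, a chain of the recognition subunit C1q (1.98), while C1qa and C1qc did not pass, with 1.22 (SE 0.43, limma adjusted p = 0.113) and 1.22 (SE 0.39, limma adjusted p = 0.089). C1s1 was 7.61, 7.08, 7.03 and 7.85 in 4T1OE tumours, against 9.61, 9.998, 10.17 and 9.16 in 4T1OE-CTL tumours. C1s2 was 6.68, 6.81, 6.69 and 6.62 in 4T1OE tumours, against 7.90, 9.20, 9.30 and 9.27 in 4T1OE-CTL tumours. C4b, whose feature may also read the near-identical C4a, was 9.12, 9.53, 8.92 and 9.30 in 4T1OE tumours, against 11.03, 11.89, 10.63 and 11.69 in 4T1OE-CTL tumours. In none of these 3 did the lines overlap. The genes that fell had differences of -2.34 for C1s1, -2.22 for C1s2, -2.12 for C4a, -2.09 for C4b and -0.92 for C1ra. C2 lay under the negative control median on all 4T1OE arrays, with the control arrays at least 0.22 higher. The list's median was -0.55, or -0.58 without the narrow arrays, and leaving out Nlrx1-/- 4T1OE replicate 2 made it -0.35, Nlrx1-/- 4T1OE-CTL replicate 2 -0.34.

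The Ly6 genes, which encode small GPI-anchored surface proteins, lie together on mouse chromosome 15. Of 10 measured members 4 fell and 0 rose, against 1.73% of all features lower. Ly6c1 was 11.77, 9.88, 9.89 and 10.01 in 4T1OE tumours, against 14.55, 13.18, 14.61 and 13.46 in 4T1OE-CTL tumours and differed by -3.56 (SE 0.47, limma adjusted p = 0.00711), and its feature may also read Ly6c2. Ly6e was 13.62, 12.39, 12.40 and 12.79 in 4T1OE tumours, against 15.64, 14.67, 15.45 and 16.03 in 4T1OE-CTL tumours and differed by -2.64 (SE 0.35, limma adjusted p = 0.00712). Ly6c2 differed by -3.11 and Ly6i by -1.15, while the list's median was -0.28, with -0.06 without the narrow arrays, -0.51 without the 2 arrays high in muscle markers and -0.18 without Nlrx1-/- 4T1OE replicate 2. Without the narrow arrays Ly6c1 differed by -3.51 and Ly6e by -3.43.

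Counts of inflammasome, checkpoint and NF-kB genes stand against 4.71% of all features higher and 1.73% lower. Among 17 inflammasome and caspase genes 2 fell and 0 rose. Casp1, the caspase that matures interleukin 1 beta, was 11.08, 10.69, 10.98 and 11.13 in 4T1OE tumours, against 12.23, 12.54, 12.55 and 12.96 in 4T1OE-CTL tumours, lower on every 4T1OE array, with a difference of -1.603 (SE 0.19, limma adjusted p = 0.00566). Casp4, the sensor of cytosolic lipopolysaccharide, differed by -1.06 (SE 0.27, limma adjusted p = 0.0489). The list's median was 0.06, or 0.12 without the narrow arrays. Of 20 checkpoint genes 3 fell and 0 rose: Cd274, the PD-L1 gene, by 1.24, Pdcd1lg2, the PD-L2 gene, by 1.79, and Ido1, which lay under the negative control median on all 4T1OE arrays and carries no size. Pdcd1lg2 was 6.76, 7.20, 6.81 and 7.20 in 4T1OE tumours, against 7.97, 8.56, 8.72 and 9.88 in 4T1OE-CTL tumours, without overlap. The checkpoint list's median was 0.07 with all arrays and turned to -0.40 without the narrow ones. Of 24 NF-kB targets and inflammatory cytokines 1 rose, Csf1, and 0 fell, and Nos2 was widely spread at 6.59, 7.01, 7.48 and 8.59 in 4T1OE tumours, against 6.17, 12.31, 12.95 and 10.32 in 4T1OE-CTL tumours. The NF-kB list's median was -0.36 with all arrays, 0.16 without the narrow ones and 0.07 without WT 4T1OE-CTL replicate 1, so it turned as well.

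Mgst1, a microsomal glutathione transferase that reduces lipid peroxides, was lower by 2.75 (SE 0.23, limma adjusted p = 0.0018). Its values were 10.15, 10.80, 10.70 and 10.34 in 4T1OE tumours, against 13.04, 13.47, 12.97 and 13.53 in 4T1OE-CTL tumours, and the ranges within each line were under 1 unit. Without the narrow arrays it differed by -3.01. Of the 7 measured genes of the soluble families on the list (Gsta, Gstm, Gstp, Gstt and Gsto) 3 rose. Gsta4, which clears lipid aldehydes, was 9.43, 10.43, 9.39 and 9.54 in 4T1OE tumours, against 7.76, 8.69, 7.41 and 8.07 in 4T1OE-CTL tumours and differed by 1.72 (SE 0.29, limma adjusted p = 0.0138). Gsta2 was higher by 2.04 (SE 0.35, limma adjusted p = 0.0144), Gstp1 by 1.52 (SE 0.27, limma adjusted p = 0.0165) and, outside that family, the catalase gene Cat by 1.55 (SE 0.29, limma adjusted p = 0.0188). Of 26 glutathione and antioxidant genes 4 rose and 1 fell, 22 differences were positive, and the median was 0.53 with all arrays and 0.22 without the narrow ones.

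Counts in mitochondrial and lysosomal lists are read against the 4.71% of all features that were higher. That share includes dim features. Among 9978 features with a chromosome and a level above the median feature, 928 were higher and the median difference was 0.27. Lists near these values do not stand out from them. Of 20 genes of the tricarboxylic acid cycle and fatty acid oxidation 4 rose and 0 fell. Cpt1a, which admits fatty acids into mitochondria, was 9.30, 9.40, 9.94 and 9.54 in 4T1OE tumours, against 7.50, 7.92, 7.80 and 8.86 in 4T1OE-CTL tumours and differed by 1.53 (SE 0.25, limma adjusted p = 0.0131). Pdha1, of pyruvate dehydrogenase, differed by 1.42 (SE 0.24, limma adjusted p = 0.0133), and the others that rose were Acadm (1.26) and Ogdh (0.94). The list's median of 0.33 was 0.01 without the narrow arrays. Oxidative phosphorylation genes had 1 of 38 higher, a share under that of all features, the complex II gene Sdhd (1.19, SE 0.24, limma adjusted p = 0.025), and a median of 0.33 with all arrays, of 0.22 without WT 4T1OE replicate 1, of 0.19 without WT 4T1OE-CTL replicate 1 and of -0.14 without the narrow arrays, so the direction of that list turned. Of 28 autophagy, mitophagy and lysosome genes 3 rose and 0 fell, Atg9a (1.19, SE 0.26, limma adjusted p = 0.0302), the ATG8 family gene Gabarap (0.98, SE 0.23, limma adjusted p = 0.0354) and Lamp1 (0.76, SE 0.19, limma adjusted p = 0.0457), with a median of 0.56 and of 0.20 without the narrow arrays.

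Genes of growth arrest, hypoxia and division were read next, against the same backgrounds. Of 22 p53 targets and apoptosis genes 5 rose and 0 fell. Cdkn1a, the p21 gene, was 9.12, 8.30, 8.86 and 10.55 in 4T1OE tumours, against 6.16, 6.32, 8.42 and 8.43 in 4T1OE-CTL tumours, with the 2 WT control values inside the 4T1OE range, and differed by 1.87 (SE 0.39, limma adjusted p = 0.0257). Perp, a desmosome and p53 effector gene, differed by 1.99 (SE 0.45, limma adjusted p = 0.0325), Gadd45a by 1.43 (SE 0.33, limma adjusted p = 0.0362) and Ei24 by 1.07 (SE 0.22, limma adjusted p = 0.0241). For this list the median was 0.35, with 0.31 without the narrow arrays and 0.21 without Nlrx1-/- 4T1OE-CTL replicate 2. Of 23 glycolysis and hypoxia genes 2 rose, Adm (1.58, SE 0.39, limma adjusted p = 0.0451) and the HIF prolyl hydroxylase gene Egln3 (1.24, SE 0.21, limma adjusted p = 0.0143), and 0 fell, with a median of 0.42 and of 0.20 without the narrow arrays. Of 28 mitotic and S-phase genes 0 passed, with 8 at an unadjusted limma p under 0.05. That is near the share of all features with such a p, 26.1%. The list's median was 0.16 with all arrays, 0.33 without WT 4T1OE replicate 2, 0.06 without WT 4T1OE-CTL replicate 1, 0.42 without WT 4T1OE-CTL replicate 2 and -0.70 without the narrow arrays, so this list turned too.

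Among matrix and developmental genes were several of the largest differences. Sdc2, the syndecan-2 heparan sulphate proteoglycan, was 12.79, 12.64, 12.56 and 12.76 in 4T1OE tumours, against 9.03, 8.99, 9.12 and 10.60 in 4T1OE-CTL tumours. The 4T1OE values lay within 0.3 of each other, WT 4T1OE-CTL replicate 2 stood above the other controls, and the difference was 3.25 (SE 0.32, limma adjusted p = 0.00293) with all arrays and 2.06 without the narrow ones. Dmp1, an acidic matrix protein of bone and dentin, was 15.02, 14.93, 14.55 and 15.00 in 4T1OE tumours, against 11.62, 8.46, 12.42 and 12.22 in 4T1OE-CTL tumours. The control value of Nlrx1-/- replicate 2 was over 3 units under the other controls, and the difference was 3.70 (SE 0.66, limma adjusted p = 0.0159), or 2.56 without the narrow arrays. Mest, an imprinted gene expressed from the paternal copy in the embryo, was 12.08, 10.87, 12.16 and 12.87 in 4T1OE tumours, against 9.14, 7.30, 8.97 and 7.74 in 4T1OE-CTL tumours, a difference of 3.71 (SE 0.47, limma adjusted p = 0.00636). Csn3, the kappa-casein gene of milk, was 9.55, 10.69, 10.11 and 9.11 in 4T1OE tumours, against 5.17, 7.40, 7.19 and 6.27 in 4T1OE-CTL tumours, a difference of 3.36 (SE 0.50, limma adjusted p = 0.00856). Npl, which breaks down sialic acid, and Chn1, a Rac GTPase-activating protein gene, were higher by 3.02 (SE 0.31, limma adjusted p = 0.00293) and 2.98 (SE 0.36, limma adjusted p = 0.00564). The endostatin-bearing collagen gene Col18a1 was higher by 1.69 (SE 0.21, limma adjusted p = 0.00624), and Epb41l4a, a FERM domain gene, was lower by 2.52 (limma adjusted p = 0.00718).

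The epithelial identity of the carcinoma cells was checked on 23 genes, against 4.71% of all features higher. Perp (1.99) and Spint1, an inhibitor of membrane serine proteases (1.19, SE 0.21, limma adjusted p = 0.0143), rose, the membrane protease gene Prss8 was at least 0.01 higher with all control arrays under the negative control median (limma adjusted p = 0.0387), and 0 fell. The E-cadherin gene Cdh1 was 11.09, 10.51, 11.06 and 11.62 in 4T1OE tumours, against 7.82, 7.63, 11.73 and 10.44 in 4T1OE-CTL tumours, and its 2 Nlrx1-/- control values were the lowest. The adhesion gene Epcam was 7.77, 9.08, 8.32 and 8.30 in 4T1OE tumours, against 6.94, 7.06, 9.81 and 8.57 in 4T1OE-CTL tumours, and neither passed, with differences of 1.66 (SE 0.53, limma adjusted p = 0.0878) and 0.27 (SE 0.49, limma adjusted p = 0.752). The list's median was 0.33, with 0.11 without Nlrx1-/- 4T1OE replicate 2, 0.17 without Nlrx1-/- 4T1OE-CTL replicate 2, 0.60 without WT 4T1OE-CTL replicate 1 and 0.11 without the narrow arrays. Of the 12 milk protein and secretory genes Csn3 rose, Xdh fell by 1.39 and Wap passed as lower, with the control arrays at least 0.72 above the floor set by the 4T1OE arrays.

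Markers of surrounding tissue were high on some arrays of both lines. Skeletal muscle markers deviated by -0.59, -1.02, 3.201 and -1.10 in 4T1OE tumours and -0.62, 2.03, 1.81 and 0.35 in 4T1OE-CTL tumours. The highest array was WT 4T1OE replicate 1, followed by Nlrx1-/- 4T1OE-CTL replicate 2 and WT 4T1OE-CTL replicate 1. Of the 20 markers 0 passed, with 0 at an unadjusted limma p under 0.05, against 26.1% of all features. Of their differences 19 were negative, and the median was -0.69 with all arrays and 0.49 without the narrow arrays. Creatine kinase Ckm was 6.65, 6.25, 9.27 and 5.99 in 4T1OE tumours, against 7.07, 9.37, 7.55 and 7.03 in 4T1OE-CTL tumours. Without the 2 arrays whose deviation was above 2, WT 4T1OE replicate 1 and Nlrx1-/- 4T1OE-CTL replicate 2, 201 features were called, 150 higher and 51 lower, and the medians of the macrophage and type I interferon lists were 1.30 and -0.93. The part of muscle or lymphoid tissue in single calls was not tested.

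One gene family took 5 of the 14 places at the lower end. The Btbd35f genes lie on the X chromosome and form a multigene family of near-identical copies, so their features may read several copies and single members are uncertain. Btbd35f20 was 5.22, 5.07, 5.11 and 5.94 in 4T1OE tumours, against 7.64, 10.34, 8.42 and 7.04 in 4T1OE-CTL tumours. Its values followed the spread of the arrays, with the highest control value on Nlrx1-/- replicate 2, the narrowest array, and the lowest on WT replicate 2, the widest control. In parental tumours it was 12.79, 5.84, 10.23 and 6.33, high on both replicate 1 arrays, whose standard deviations were 2.53 and 2.89. It was low on both replicate 2 arrays, with 3.04 and 3.07. The 12.79 came from parental Nlrx1-/- replicate 1, whose median r with the other tumour arrays was 0.896. The differences were -3.03 for Btbd35f20, -2.81 for Btbd35f19, -2.59 for Btbd35f18, -2.45 for Btbd35f13 and -2.36 for Btbd35f14. Their limma adjusted p-values were 0.0139 to 0.0291. Without the narrow arrays they were -0.98 to -1.51.

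Differences were unevenly spread over the genome. Among 9978 features with a chromosome and a level above the median feature, the median difference was 0.27. On chromosome 3 it was 0.74, with 153 of 500 features higher (30.6%) and 3 lower, and on chromosome 17 it was 0.63, with 139 of 513 higher (27.1%) and 10 lower. Off these 2 chromosomes 7.09% were higher. Chromosomes 3 and 17 held 10.2% of the features and 292 of the 928 higher calls, or 31.5%. The level of a chromosome on an array, found by subtracting each gene's 8-array median, then each array's median, and taking the median over the chromosome, was 0.11, 0.13, 0.19 and 0.24 in 4T1OE tumours, against -0.39, -0.37, -0.11 and -0.17 in 4T1OE-CTL tumours for chromosome 3. For chromosome 17 it was 0.09, 0.24, 0.17 and 0.08 in 4T1OE tumours, against -0.17, -0.29, -0.19 and -0.17 in 4T1OE-CTL tumours. In neither did the lines overlap. Chromosome 6 lay the other way, at -0.07, -0.09, -0.07 and -0.07 in 4T1OE tumours, against 0.15, 0.23, 0.14 and 0.17 in 4T1OE-CTL tumours.

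**Figure D3:**
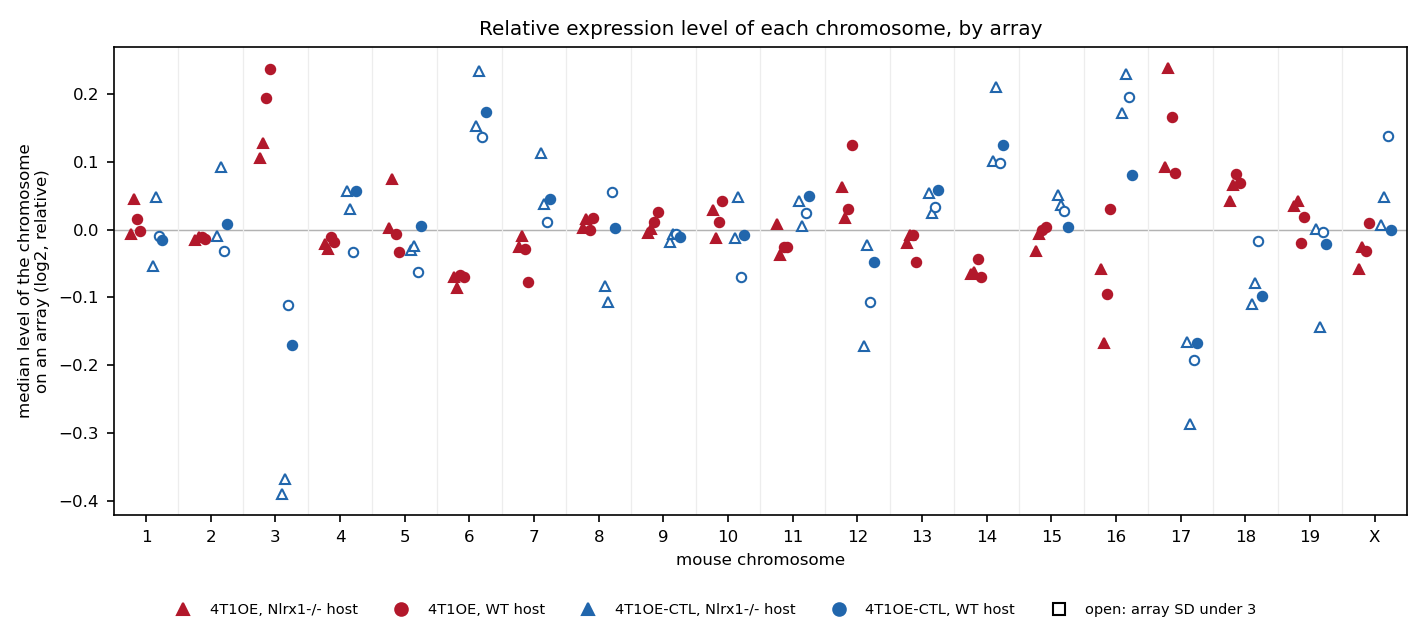
Relative level of each mouse chromosome (horizontal axis) on each array (vertical axis, log2), with red for 4T1OE and blue for 4T1OE-CTL arrays, triangles for Nlrx1-/- and circles for WT hosts, and open symbols for the narrow arrays. Chromosomes 3 and 17 show the 4 4T1OE arrays between 0.08 and 0.24 and the 4 control arrays between -0.39 and -0.11.

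In all, 5 of 20 chromosomes had the 4T1OE arrays wholly above (3, 9, 12, 17 and 18) and 5 wholly below the control arrays (6, 7, 13, 14 and 16). Against WT 4T1OE-CTL replicate 2 alone, the mean of the 4T1OE arrays was 0.34 higher on chromosome 3, 0.31 higher on chromosome 17 and 0.25 lower on chromosome 6. With array spread in the model, the median differences of the features of chromosomes 3, 17 and 6 were 0.43, 0.31 and -0.30, without the narrow arrays 0.47, 0.33 and -0.23, and after quantile normalization 0.47, 0.42 and -0.21. The pattern ran along whole chromosomes. In windows of 25 neighbouring genes, the 20 windows of chromosome 3 had medians of 0.30 to 0.97, against 0.25 for the median of 391 windows of all chromosomes. On chromosome 17 the 20 windows ran from -0.10 to 0.85, and the lowest was the window from Zbtb22 to Pbx2. Single windows elsewhere stood apart and were picked after their values were seen: Cdk6 to Tmem243 on chromosome 5 at 0.88, with 12 of 25 genes higher, Gm2888 to Atxn7 on chromosome 14 at -0.75 and Araf to Il13ra1 on the X chromosome at -1.27. Fcrls, Csf1 and Acadm lie on chromosome 3, Tapbp, Cdkn1a and Igf2r on chromosome 17, and Mgst1, C1s1 and Herc6 on chromosome 6. Of the 13 macrophage markers that rose 1 lies on chromosome 3 or 17, of the 4 endothelial markers 0 and of the 6 angiogenic genes 0. Of the 5 p53 list genes that rose 2 lie there, and of the 4 in the Gas6, Axl and PDGF list 2. The only NF-kB list gene that rose, Csf1, and the only interferon gamma list gene that rose, Tapbp, lie there too. So do 1 of 4 tricarboxylic acid cycle and fatty acid oxidation genes and 1 of 3 imprinted genes. The remaining lists had 0 such genes. The cause of the pattern was not tested.

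**Figure D4:**
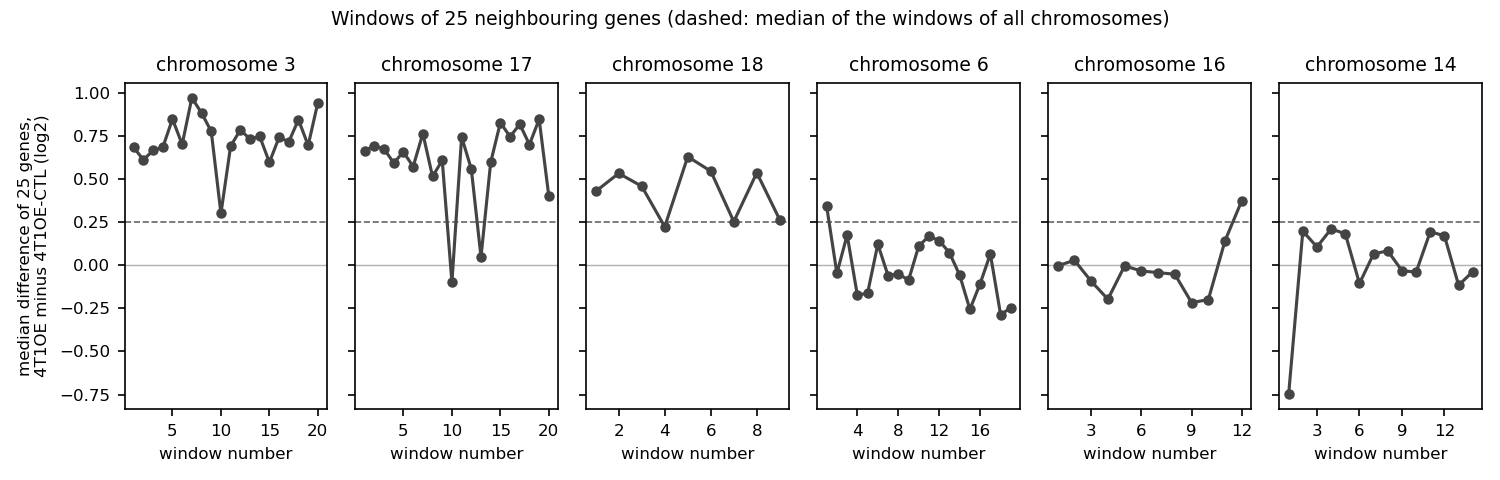
Median difference (vertical axis, log2, 4T1OE minus 4T1OE-CTL) of successive windows of 25 neighbouring genes, numbered along 6 chromosomes (horizontal axis), with the dashed line at the median window of all chromosomes, 0.25. All 20 windows of chromosome 3 lie above that line, as do 18 of the 20 of chromosome 17.

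The hosts were compared through the interaction of line and host. It asks whether the difference between 4T1OE and 4T1OE-CTL tumours was larger in Nlrx1-/- than in WT hosts. No feature passed limma at an adjusted p of 0.05 (0.00%), and 966 had an unadjusted p under 0.05 (4.35%). Nlrx1 differed by 4.11 in Nlrx1-/- hosts and 2.66 in WT hosts (interaction 1.45, SE 0.50, limma adjusted p = 0.969). Fcrls differed by 4.79 in Nlrx1-/- hosts and 4.15 in WT hosts. Tslp differed by -2.73 in Nlrx1-/- hosts and -3.51 in WT hosts, and Mgst1 by -2.77 and -2.73 in the same order. The interactions of these 3 had limma adjusted p-values of 0.969 to 0.997.

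The interaction values named for size were not past the threshold. Krt7, a keratin gene of simple epithelium, had 3.48, with 12.28, 12.84, 12.22 and 12.64 in 4T1OE tumours, against 11.47, 10.33, 15.16 and 13.35 in 4T1OE-CTL tumours. The controls of this gene ranged over nearly 5 units, highest in WT and lowest in Nlrx1-/- hosts. Prss22, a serine protease gene, had 2.98, and the integrin ligand gene Npnt 2.98. At the other end stood Fcna with -1.90, Ctla2a, a cysteine protease inhibitor gene, with -1.84, and the defensin gene Defb45 with -1.66. All 6 had limma adjusted p-values of 0.969. The median difference of the macrophage list was 1.40 in Nlrx1-/- hosts and 1.604 in WT hosts, and that of the type I interferon list was -0.60 and -0.91. Both control arrays of the Nlrx1-/- hosts were narrow, so an interaction without the narrow arrays could not be fitted, and host and array spread cannot be told apart on the control side of those hosts.

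**Figure D5:**
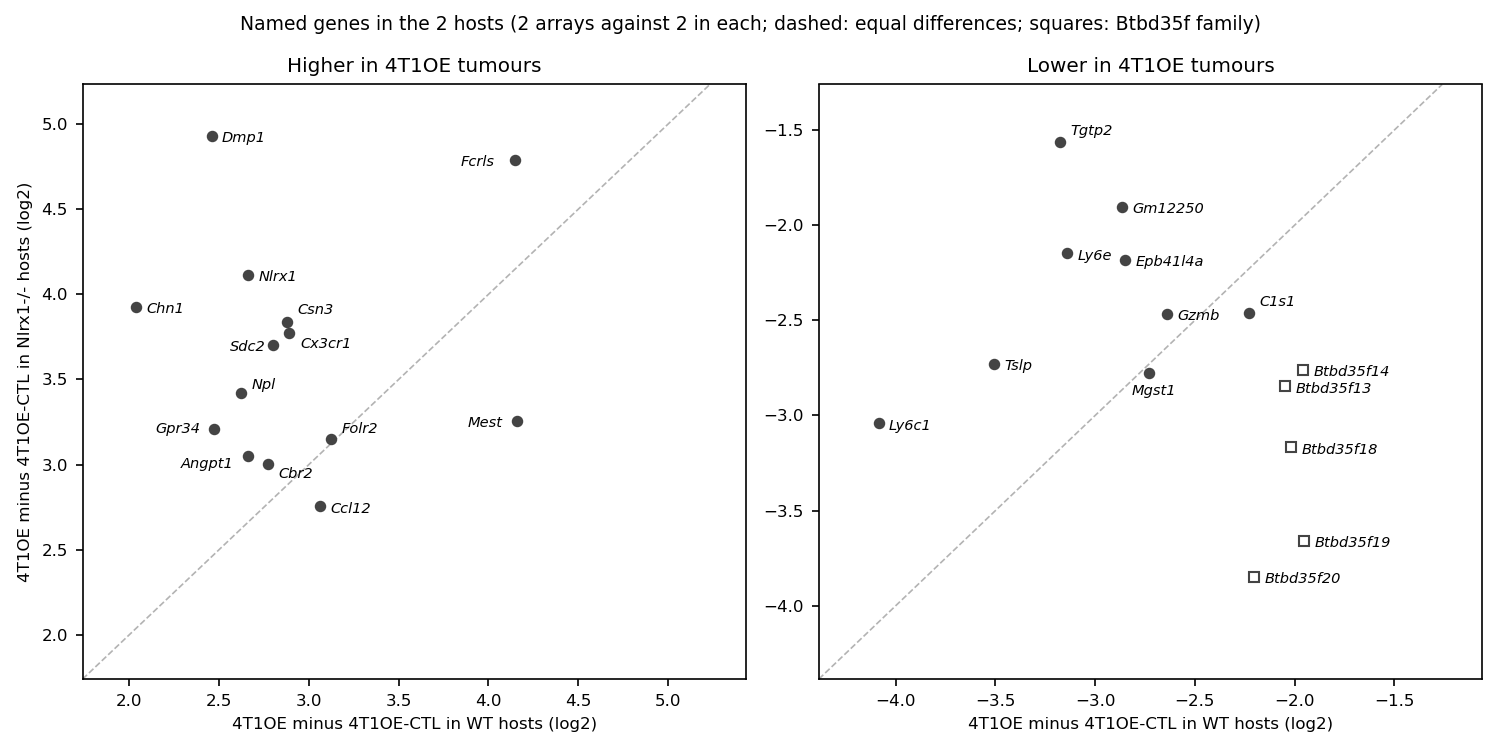
Differences of the 28 named genes with the largest differences among called genes whose lines did not overlap, 4T1OE minus 4T1OE-CTL (log2), in Nlrx1-/- hosts (vertical axes) against WT hosts (horizontal axes), with 14 higher genes on the left, 14 lower genes on the right, and 2 arrays against 2 behind each value. Every gene has the same sign in both hosts, which the choice of genes whose lines did not overlap fixed in advance. The squares of the Btbd35f genes lie below the dashed line of equal differences.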

How the data were processed

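Whole-transcriptome Clariom S mouse arrays were read for pooled tumour RNA, purified with Qiagen RNeasy kits per the labels' protocols. The authors deposited log2 values made with Transcriptome Analysis Console, per the submitters' processing notes. Background correction and normalization are not given in the sources used here. How far these shaped an array's spread is unknown. Of 28846 rows, 6640 control rows (31 AFFX, 63 ERCC, 6546 MG-1) were left out, and 22206 features were tested. Of these, 19572 had 1 gene symbol and 2634 none. 1 column held no values.

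The deposited log2 values entered limma 3.58.1 (R 4.3.3) with host and line as terms over 8 arrays, and p-values were adjusted by Benjamini-Hochberg over all features at 0.05. Two-sided exact permutation tests were run for single values. The scripts were tested on simulated data. Python 3.11.15, pandas 2.3.3 and matplotlib 3.10.9 were used. A feature under the median of an array's 5222 negative controls on every array of a line has only a bound. Promoters came from RefSeq (GRCm38.p6), and not every motif searched is reported here. The precision is limited by 4 arrays per line, and array spread went with the line.

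Named genes were the 14 largest differences each way among called features with a symbol whose lines did not overlap, Nlrx1, Tslp, Mgst1 and Fcrls, up to 4 called members of each list (or the 1 with the smallest p), and the 3 highest and 3 lowest interactions. Further members given with their values were chosen after those values were seen. The lists (742 of 820 genes matched) and members were chosen with earlier results of these data known. Alternatives were other normalizations, filters, covariates and samples, parental arrays included, and leaving out each array. Leaving out arrays of high muscle or B cell lists was chosen after seeing the data.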

Additional observations from a re-analysis of the deposited data

Results flagged for a closer look

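Within groups of 4 arrays, 15 of 146 tested groups had 1 array far from the other 3. Chance gives about 1 in 20 for independent groups. These groups shared arrays and related genes, so the count cannot be read as an excess over chance. Nlrx1-/- replicate 1 arrays made up several of them. There the T cell list deviated by 1.97 in 4T1OE tumours (others -0.64 to -0.47). The B and plasma cell list deviated by 3.00 in 4T1OE tumours and by 3.80 in 4T1OE-CTL tumours. The lymph node stroma list deviated by 2.53 in 4T1OE tumours and by 2.74 in 4T1OE-CTL tumours. Ly6c1 was 11.77 on the 4T1OE array of that replicate.

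Nlrx1-/- 4T1OE replicate 2 stood apart in the adipocyte list (0.181), the imprinted gene list (-0.185) and the Ly6 list (-0.573). The skeletal muscle list deviated by 3.201 on WT 4T1OE replicate 1. On WT 4T1OE replicate 2, Btbd35f20 was 5.94 and Btbd35f18 was 6.64, both above the other 4T1OE arrays. Among 4T1OE-CTL arrays, Sdc2 was 10.60 on WT replicate 2 (others 8.99 to 9.12), Gm12250 was 13.45 on WT replicate 1 (others 11.35 to 11.56), and the p53 list deviated by -0.629 on Nlrx1-/- replicate 2.

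In 2 lists the deviations of the 4T1OE arrays lay wholly above those of the 4T1OE-CTL arrays in Nlrx1-/- hosts and wholly below them in WT hosts. From the mean deviations, the difference in Nlrx1-/- hosts minus that in WT hosts was 0.474 for fibroblast markers and 0.216 for coagulation genes, and neither was tested. By the median of the gene differences, fibroblast markers stood at 0.16 in Nlrx1-/- hosts and -0.62 in WT hosts, but coagulation genes had the same sign in both hosts, at -0.09 and -0.13.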

How the results depend on the processing

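All 1432 differences called with 8 arrays kept their sign in every alternative that tested them. In fits that only left out some of the 8 arrays, this was fixed in advance for the 1338 whose lines did not overlap. The number of calls was 787 after quantile normalization, 1947 after centring, 2283 with array weights, 820 with the replicate block, 25 with all 12 tumour arrays, 2 without the narrow arrays and 0 once array standard deviation entered the model. It was 201 without the arrays of a high muscle list and 290 without those of a high B cell list, both chosen after seeing the data. Leaving out 1 array gave 185 to 3245. Nlrx1 differed by 2.85 once array spread entered the model and by 2.72 without the narrow arrays, past the threshold in neither. Of 98 other named calls, 73 remained after quantile normalization, 79 with the block and 35 to 93 when 1 array was left out, and 33 of 99 held in all 8 such fits. Within a host, the replicate 1 minus replicate 2 differences of the features correlated between the lines at -0.053 in WT and 0.371 in Nlrx1-/- hosts. The replicate numbers are not said to mark a shared batch, so they were not taken as pairs in the main fit. The fit with the replicate block is the one with 820 calls. The interaction gave 0 calls in every fit, and it could not be fitted without the narrow arrays. The cause of these changes was not tested.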
